A study of Mus musculus with 10 samples.

Results

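Deubiquitinating enzymes were examined in the whole-blood RNA of mice that later gained much or little weight on olanzapine. The members were chosen by gene symbol alone, as every gene of the deposited table whose symbol starts with Usp and a number, Otu, Uchl and a number or Josd, or is *Atxn3*, and 54 of 10431 genes met this rule. They comprised 41 ubiquitin-specific proteases (USP), 8 ovarian tumour (OTU) proteases, 2 ubiquitin C-terminal hydrolases (UCH) and 3 Machado-Joseph domain proteases. All 54 exceeded the filter on low values, and all 54 carry the same symbol in RefSeq. Of 75 protein-coding genes that RefSeq names by this rule, 20 were not analysed here, among them *Uchl1*, *Otulin*, *Usp2* and *Usp13*, and 1 more, *Otulinl*, stands in the table under an older symbol (*Fam105a*) that the rule does not take. *Usp6nl* fits the rule by its symbol only, since its product activates the GTPase activity of Rab proteins, and *Usp39* encodes a splicing factor that lacks the catalytic residues of the family.

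The samples came from 10 female C57BL/6J mice without any engineered allele, bought at 9 weeks of age, with 5 mice in the AIWG-P cohort, prone to antipsychotic-induced weight gain, and 5 in the AIWG-R cohort, resistant to it. The cohorts were the extremes of a larger set of mice that all ate a high-fat diet (45% of kcal) with olanzapine, an antipsychotic, over 14 days. The study's methods place the blood draw before this diet, whereas the treatment field of the sample labels names the diet itself, so the time of the draw rests on the methods. The AIWG-P mice are called P1, P3, P5, P7, P8 and the AIWG-R mice R1, R2, R4, R8, R9. The values are normalized read counts per gene, and a fold change is AIWG-P over AIWG-R on the scale of log2(value + 1), which understates the change of low genes.

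Ubiquitin is a small protein that is joined to lysines of other proteins, singly or in chains, and marks them for the proteasome, for sorting at membranes or for signalling. Deubiquitinating enzymes cut it off again. Most of them, the USP, OTU, UCH and Machado-Joseph families among them, are cysteine proteases, and USP proteins form the largest family in mammals. In blood they are best known for tuning interferon and NF-kB signalling in leukocytes, while maturing red cells use the ubiquitin system to clear proteins they no longer need.

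All mice held most of their RNA in globin transcripts, whose share of all values was 78.2 to 87.5% in AIWG-P and 75.0 to 83.2% in AIWG-R. Within each mouse all values were whole multiples of one step, within a tolerance of 0.02 of a step, and the multiples summed to 24447563 to 32293924 in AIWG-P and 23810098 to 28093845 in AIWG-R. This sum equals the depth if a step is 1 read. Markers of the cell types that blood holds were measured in both cohorts. The lowest mean over all mice of any gene in the table was 14.5, so a mean above 0 holds for every gene in it and not for the markers alone. Of 16 red cell membrane genes measured from a list of 18, 13 rose in AIWG-P and none fell, and the list summed to 10960 to 18950 in AIWG-P mice and 4758 to 12600 in AIWG-R mice. Of the other marker lists, 1 of 12 neutrophil genes rose (*Ngp*), 1 of 7 NK cell genes fell (*Ncr1*), and no gene passed among 8 monocyte, 10 platelet, 9 B cell and 10 T cell genes. In whole blood, fewer cells of a type and less RNA per cell cannot be told apart. Mice P8 and R9 stood apart from the rest: P8 gave the lowest value of 28.5% of all genes and the highest of 27.1%, and R9 had the lowest mean of the red cell list, at 6.63 on the log2 scale. The globin share was highest in P8 (87.5%) and lowest in R9 (75.0%). Some results are given with and without these mice, and values given only with all mice may rest on them as well.

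Promoter windows of RefSeq (250 bases before to 50 after a gene's start, assembly GRCm38.p6) were found for 42 members as 46 windows. The 4 shown belong to members that the results turn on: the one member that rose past both thresholds, the one with no overlap between the cohorts, the one with the lowest fold change and the UCH member with the larger difference. They are given 5′ to 3′ on the strand of the gene. *Usp15* lies at chr10:123196970-123197269 on the minus strand, *Usp48* at chr4:137593922-137594221, *Usp49* at chr17:47630440-47630739 and *Uchl3* at chr14:101653717-101654016, these 3 on the plus strand. Capitals mark GAAANNGAAA, the core of an interferon-stimulated response element, in *Usp49*, and TTATCA, which reads TGATAA on the other strand and is a form of the GATA motif, in *Uchl3*.
Usp15: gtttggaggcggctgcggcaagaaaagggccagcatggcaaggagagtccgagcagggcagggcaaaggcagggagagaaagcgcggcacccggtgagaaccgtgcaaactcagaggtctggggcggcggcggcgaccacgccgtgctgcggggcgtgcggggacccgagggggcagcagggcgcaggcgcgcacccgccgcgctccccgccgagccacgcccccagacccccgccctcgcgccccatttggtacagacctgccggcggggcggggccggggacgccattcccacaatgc
Usp48: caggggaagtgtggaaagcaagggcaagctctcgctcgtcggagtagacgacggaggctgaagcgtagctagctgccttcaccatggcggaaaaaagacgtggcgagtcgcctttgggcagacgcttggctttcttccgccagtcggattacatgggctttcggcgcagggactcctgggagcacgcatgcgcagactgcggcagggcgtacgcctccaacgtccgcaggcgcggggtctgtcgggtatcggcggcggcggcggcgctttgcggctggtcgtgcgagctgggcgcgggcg
Usp49: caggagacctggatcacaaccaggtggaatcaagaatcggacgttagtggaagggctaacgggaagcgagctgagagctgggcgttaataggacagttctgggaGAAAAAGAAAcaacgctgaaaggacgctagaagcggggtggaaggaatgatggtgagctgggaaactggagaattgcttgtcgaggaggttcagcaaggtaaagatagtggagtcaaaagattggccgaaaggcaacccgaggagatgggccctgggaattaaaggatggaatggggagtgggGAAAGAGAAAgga
Uchl3: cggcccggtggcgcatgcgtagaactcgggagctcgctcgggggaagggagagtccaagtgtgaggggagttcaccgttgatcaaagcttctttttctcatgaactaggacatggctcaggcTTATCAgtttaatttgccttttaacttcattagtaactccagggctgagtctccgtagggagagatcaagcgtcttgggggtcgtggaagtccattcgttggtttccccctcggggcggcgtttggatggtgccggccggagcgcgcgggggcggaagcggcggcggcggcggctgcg

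The member windows were rich in G and C, with a median of 64.0% (45.0 to 86.0%), against a median of 52.7% over all 32851 windows used. These windows are not limited to genes measured in blood here, and they do not cover every chromosome. Member windows were not compared with those of the other genes measured. The median number of CG dinucleotides was 28 in member windows and 7 over all windows. Searched on both strands, AGATAA was in 0 of 46 member windows and in 11.2% of all windows. TGATAA was in 1, that of *Uchl3*, and in 9.05% of all windows. GAAANNGAAA was in 1, that of *Usp49*, with matches that begin at positions -146 and 37 relative to the start, and in 3.44% of all windows. These matches describe letters in the windows and say nothing of binding.

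The first comparison asked which deubiquitinating enzymes differed between the cohorts. *Usp15* rose in AIWG-P, *Usp49* and *Usp54* fell, and the remaining 51 members did not pass both thresholds (limma with a mean-variance trend, an unadjusted p under 0.05 together with a value more than 25% higher or more than 20% lower). The single member that rose is 1.85% of the members, against a background of 4.06% of all 10429 genes tested, and the 2 that fell are 3.70%, against 3.23% of all genes. At an unadjusted p under 0.05 alone, 7 of 54 members passed, against 12.8% of all genes. These shares lie close to or below the background. After Benjamini-Hochberg adjustment over the genes tested, no member had a limma p under 0.05 (smallest adjusted p 0.325), nor did any other gene (smallest adjusted p 0.256). The 51 members not called had log2 fold changes of -0.35 to 0.30, and for 16 members the 95% interval lay inside these fold bounds.

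The signs of the differences were uneven. Of the 54 members 17 (31.5%) had a positive and 37 a negative log2 fold change, where 48.4% of all genes were positive, and the median over the members was -0.10, against -0.01 over all genes. By family, 31 of 41 USP genes were negative (median -0.13), 5 of 8 OTU genes (median -0.12), 0 of 2 UCH genes (median 0.19) and 1 of 3 Machado-Joseph genes (median 0.10). The median of the members was -0.04 without P8 and -0.02 when both P8 and R9 were left out.

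**Figure D1:**
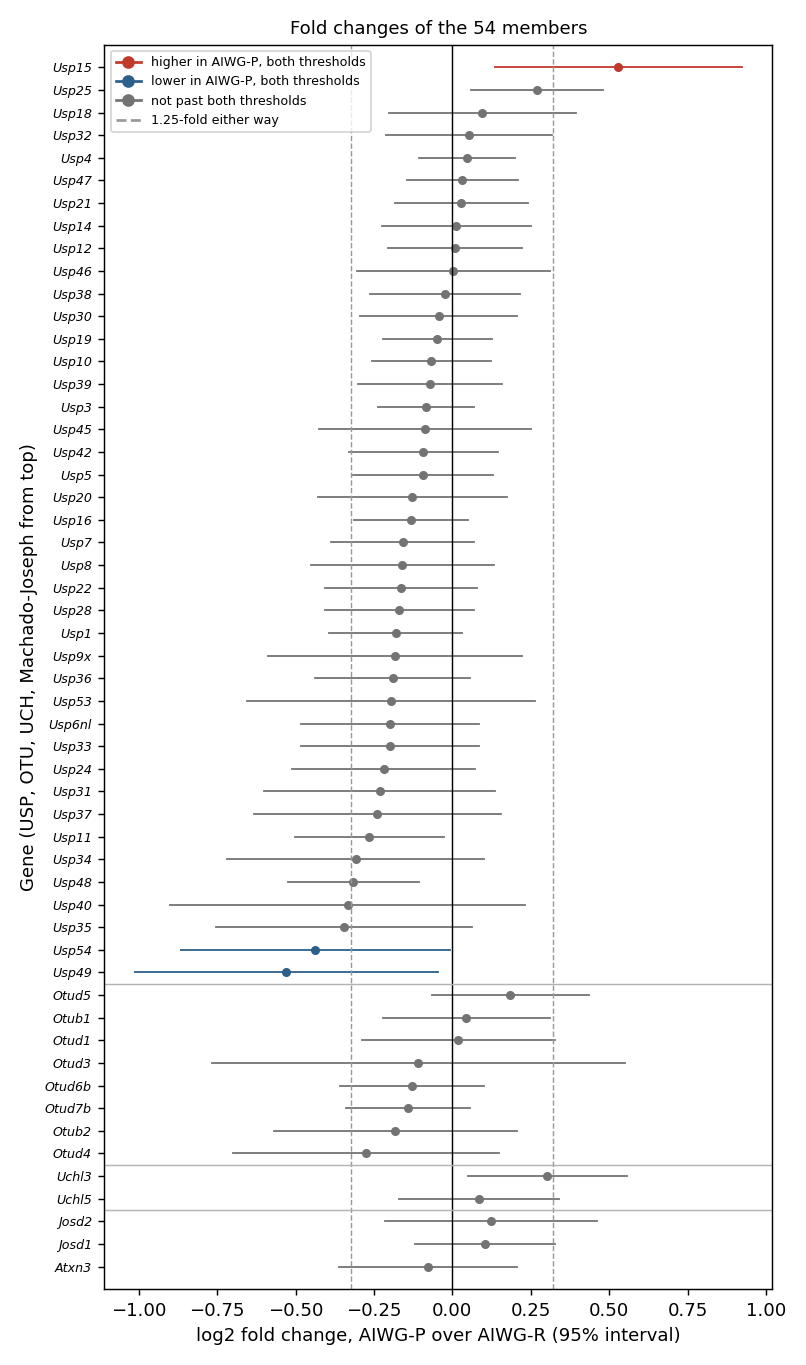
Log2 fold change, AIWG-P over AIWG-R, of the 54 members (points) with 95% intervals (lines), grouped by family from top to bottom. *Usp15*, at 0.53, is the one member past both thresholds on the right, *Usp49* (-0.53) and *Usp54* (-0.44) are those on the left, and most intervals cross 0.

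*Usp15* had the highest mean value of all members, not corrected for transcript length, and was the one that rose. It encodes a protease known to act on receptors and SMAD proteins of TGF-beta signalling. Its values were 2705, 2205, 2237, 1757 and 2577 in P1, P3, P5, P7 and P8, against 1660, 1800, 1455, 2212 and 1001 in R1, R2, R4, R8 and R9. All 5 AIWG-P mice exceeded the AIWG-R median, but the cohorts overlapped, with P7 below R2 and R8 and P3 just below R8. The means were 2296 ± 370 in AIWG-P, against 1626 ± 446 in AIWG-R (SD, n = 5 each), a log2 fold change of 0.53 with an SE of 0.18 (limma, unadjusted p = 0.0123, adjusted p = 0.338). An exact two-sided permutation test gave p = 0.0476, where the smallest p that 5 mice against 5 allow is 0.00794. The call held with any single mouse left out. In the 8 mice other than P8 and R9 the log2 fold change was 0.32, just under the fold threshold.

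*Usp4* and *Usp11* are the closest relatives of *Usp15*, with the same arrangement of domains around the protease. *Usp4* was the steadiest member of all: its highest value was 1.19 times its lowest, and it averaged 647.5 ± 42.4 in AIWG-P, against 626.0 ± 18.4 in AIWG-R, a log2 fold change of 0.05 with a 95% interval of -0.11 to 0.20. *Usp11* averaged 126.6 ± 15.6 in AIWG-P, against 152.1 ± 16.6 in AIWG-R, a log2 fold change of -0.26 (limma, unadjusted p = 0.031), which did not reach the fold threshold. It missed the p threshold as well without P5, P7, P8, R4 or R9, and was -0.16 without both P8 and R9. *Sart3*, whose product carries *Usp4* and *Usp15* to the spliceosome, averaged 278.5 ± 11.4 in AIWG-P, against 275.0 ± 13.3 in AIWG-R. The 3 relatives thus gave a log2 fold change above the threshold, one near 0 and one below 0. Whether the 3 differ from each other was not tested.

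*Usp48* was the member whose cohorts did not overlap. It encodes a nuclear USP linked in human cells to the turnover of an NF-kB subunit and to removal of ubiquitin from histone H2A. Its values were 424.3, 449.5, 481.4, 430.6 and 334.6 in the AIWG-P mice, against 521.4, 514.0, 536.3, 484.8 and 567.5 in the AIWG-R mice. The highest AIWG-P mouse, P5, was just below the lowest AIWG-R mouse, R8. The log2 fold change was -0.32 with an SE of 0.10 (limma, unadjusted p = 0.0064, adjusted p = 0.325), and the exact permutation p was 0.00794, the smallest possible. Its fold change of 0.804 was just short of the fold threshold, so it was not counted as lower. Without P3, P5, P7, R2 or R8 it passed both thresholds, at -0.34, -0.36, -0.32, -0.32 and -0.34. It was -0.23 without P8, -0.29 without R9 and -0.20 (unadjusted p = 0.0181) without both, and once red cell genes entered as covariate it was -0.22 (unadjusted p = 0.109). One member of 54 with every AIWG-P mouse below every AIWG-R mouse is 1.85%, against 1.44% of all genes, and no member had the opposite arrangement, which 1.11% of all genes had.

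*Usp49* and *Usp54* were the 2 members that fell, and both were among the least abundant. *Usp49* encodes a protease that takes ubiquitin off histone H2B in human cells. It had values of 43.51, 37.10, 48.45, 36.62 and 20.42 in AIWG-P mice, against 49.35, 41.12, 44.54, 60.74 and 70.23 in AIWG-R mice. The low value of P8 and the high values of R8 and R9 form the ends, and 2 AIWG-R mice (R2 and R4) lie among the AIWG-P mice. The log2 fold change was -0.53 with an SE of 0.22 (limma, unadjusted p = 0.0338, adjusted p = 0.366; exact permutation p = 0.0476). It was -0.54 without P7, -0.34 without P8, -0.48 without R8 and -0.42 without R9, and none of these passed the p threshold.

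*Usp54* had values of 36.26, 18.55, 35.95, 32.66 and 32.99 in AIWG-P mice, against 40.77, 36.65, 33.85, 47.73 and 51.42 in AIWG-R mice. The lowest value was that of P3, and the other 4 AIWG-P mice lay close together, with R4 among them and the other AIWG-R mice above them. The log2 fold change was -0.44 with an SE of 0.20 (limma, unadjusted p = 0.0469, adjusted p = 0.387; exact permutation p = 0.0317). It was -0.27 without P3, -0.46 without P7, -0.44 without R1, -0.39 without R8 and -0.36 without R9, and none of these passed the p threshold. With a mean above 50 required, *Usp49* and *Usp54* were not tested and no member was counted as lower.

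*Usp25* and *Uchl3* were higher by less than the fold threshold. *Usp25*, which encodes a protease known to act on TRAF adaptors of innate immune signalling, had values of 1222, 1307, 1399, 1158 and 1002 in AIWG-P mice, against 973.1, 1075, 1034, 1069 and 882.3 in AIWG-R mice. Only P8 lay within the AIWG-R range, and the log2 fold change was 0.27 (limma, unadjusted p = 0.0164; exact permutation p = 0.0317). Without P8 it was 0.34 and passed both thresholds. It was 0.29 without both P8 and R9 (limma, unadjusted p = 0.00277). Once red cell genes entered as covariate it was 0.17 (unadjusted p = 0.199). Where globins did not count towards the library size it was 0.13 (unadjusted p = 0.323).

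*Uchl3* encodes a hydrolase that trims ubiquitin and NEDD8 precursors at their ends. Its values were 97.91, 76.37, 91.43, 80.18 and 98.98 in AIWG-P mice, against 63.30, 84.03, 71.27, 65.08 and 75.88 in AIWG-R mice. P3 and P7 fell within the AIWG-R range and the other 3 lay above it, and the log2 fold change was 0.30 (limma, unadjusted p = 0.0225; exact permutation p = 0.0317). It passed both thresholds without P3 (0.36), P7 (0.34), R2 (0.36) or R9 (0.32). It missed the p threshold without P1 (0.27), R1 (0.26) or R8 (0.27) and without both P8 and R9 (0.28, unadjusted p = 0.0512). Once red cell genes entered as covariate it was 0.31 (limma, unadjusted p = 0.082). Where globins did not count towards the library size it was 0.16 (unadjusted p = 0.234). Its family partner *Uchl5*, a protease bound to the proteasome, averaged 72.8 ± 9.34 in AIWG-P, against 68.4 ± 6.58 in AIWG-R, with a 95% interval of the log2 fold change of -0.17 to 0.34.

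**Figure D2:**
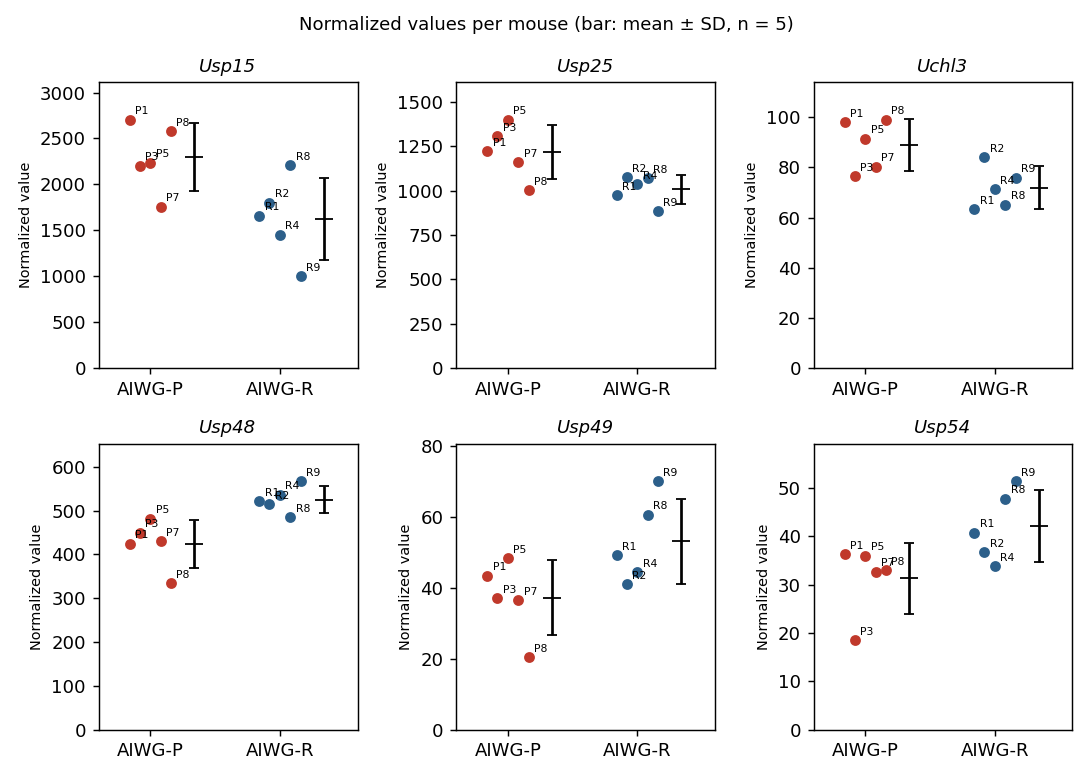
Normalized values of the 6 members with the differences described above, 1 point per mouse, AIWG-P left of AIWG-R in each panel, with mean ± SD (n = 5) beside the points. The cohorts are apart only in *Usp48*, where the highest AIWG-P mouse is at 481.4 and the lowest AIWG-R mouse at 484.8, while R9 is the lowest point of *Usp15* (1001) and P8 the lowest of *Usp49* (20.42).

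Proteases bound to the proteasome, which recycle ubiquitin from proteins about to be degraded, did not pass the test: *Usp14* averaged 144.0 ± 19.4 in AIWG-P, against 142.1 ± 12.9 in AIWG-R (95% interval of the log2 fold change -0.22 to 0.25), beside *Uchl5* above. *Usp18*, the interferon-induced protease that removes the ubiquitin-like protein ISG15, had values of 66.48, 56.73, 71.89, 70.28 and 67.56 in AIWG-P mice, against 48.28, 55.43, 73.94, 74.84 and 62.08 in AIWG-R mice. The AIWG-P values lay within the AIWG-R range, and the log2 fold change was 0.10 with a 95% interval of -0.20 to 0.39. Of 5 genes that make and conjugate ISG15, *Isg15* itself rose, with a mean of 1633 ± 499 in AIWG-P, against 990 ± 353 in AIWG-R, and so did the conjugating enzyme *Ube2l6*, with 66140 ± 14430 in AIWG-P, against 48610 ± 12140 in AIWG-R. Their slopes on the mean of the red cell genes were 1.01 (limma, adjusted p = 0.0337) for *Isg15* and 0.69 (adjusted p = 0.111) for *Ube2l6*. With that mean as covariate the log2 fold change of *Isg15* was 0.13 (limma, unadjusted p = 0.545), against 0.75 without it. That of *Ube2l6* was 0.02 (limma, unadjusted p = 0.906), against 0.45, and neither was called. The cohorts differ in the red cell genes themselves, so cohort and list cannot be fully told apart. Without R9 only 1 of all genes had a positive slope called, against 186 with R9. *Isg15* was called with any single mouse left out and at 0.38 without both P8 and R9, while *Ube2l6* was lost without P1, P3, P8, R1, R2, R4 or R9 and was 0.24 without both P8 and R9. The activating enzyme *Uba7* averaged 793 ± 73.1 in AIWG-P, against 894 ± 64.9 in AIWG-R and did not pass. *Usp30*, which sits in the outer mitochondrial membrane and opposes mitophagy, averaged 87.1 ± 7.56 in AIWG-P, against 90.2 ± 11.9 in AIWG-R (95% interval -0.29 to 0.21).

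The members listed for action on histones or chromatin were *Usp3*, *Usp16*, *Usp21*, *Usp22*, *Usp36* and *Usp49*. Of these 6, 5 had negative differences, where 68.5% of all members and 51.6% of all genes were negative. The difference of *Usp49* was called lower, as were 3.23% of all genes. *Usp16*, which removes ubiquitin from histone H2A, averaged 195.1 ± 7.38 in AIWG-P, against 214.3 ± 19.2 in AIWG-R (log2 fold change -0.13). *Usp22*, the protease of the SAGA coactivator complex, averaged 232.8 ± 37.1 in AIWG-P, against 258.4 ± 17.3 in AIWG-R (-0.16), and its SAGA partner *Atxn7* fell, with 228.9 ± 66.8 in AIWG-P, against 297.1 ± 32.5 in AIWG-R, a log2 fold change of -0.43. The call of *Atxn7* was lost without P1, P7, P8, R1, R2, R4 or R9, and the value was -0.23 without P8. The SAGA partners *Atxn7l3* (-0.05) and *Eny2* (0.04) did not pass. *Usp3* averaged 358.4 ± 19.4 in AIWG-P, against 379.6 ± 13.7 in AIWG-R. *Usp36*, a nucleolar protease, averaged 225.5 ± 31.0 in AIWG-P, against 256.5 ± 27.6 in AIWG-R, with P8 at 171.2 far below the other AIWG-P mice.

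The regulators of the p53 pathway *Usp7*, *Usp10* and *Usp42* all had negative differences, as did 68.5% of all members, and none was called. *Usp7*, which stabilizes MDM2 and p53, averaged 838.8 ± 126 in AIWG-P, against 928.0 ± 48.8 in AIWG-R (log2 fold change -0.16), and *Usp10* 164.3 ± 16.2 in AIWG-P, against 171.6 ± 6.25 in AIWG-R (-0.07). Of the proteases that are switched on by the cofactor WDR48, *Usp1*, which acts on the Fanconi anemia protein FANCD2, averaged 256.3 ± 30.8 in AIWG-P, against 289.6 ± 22.8 in AIWG-R (-0.18). *Usp12* averaged 356.3 ± 31.8 in AIWG-P, against 355.2 ± 40.0 in AIWG-R (0.01). *Usp8*, which acts on receptors at the endosome, averaged 350.2 ± 71.8 in AIWG-P, against 383.9 ± 19.8 in AIWG-R (-0.16), with P8 at 230.9 and the other AIWG-P mice between 336.5 and 402.4. *Usp32*, linked to endosomal traffic, averaged 502.2 ± 102 in AIWG-P, against 477.6 ± 32.5 in AIWG-R (0.05).

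None of the 8 OTU proteases was called. *Otud5*, a regulator of interferon induction, was the most abundant of them, with values of 1556, 1298, 1215, 1177 and 1463 in AIWG-P mice, against 1289, 1235, 1158, 1333 and 904.2 in AIWG-R mice. P1 and P8 lay above the AIWG-R mice and R4 and R9 below the AIWG-P mice. The log2 fold change was 0.19 with a 95% interval of -0.07 to 0.44. *Otub1*, which also blocks ubiquitin-conjugating enzymes without cutting, averaged 196.3 ± 32.5 in AIWG-P, against 189.3 ± 22.3 in AIWG-R, and *Otud6b* 100.6 ± 7.39 in AIWG-P, against 110.6 ± 14.0 in AIWG-R. *Otud3* was the lowest of the family and among the most variable members, with 10.88 to 32.82 in AIWG-P mice and 15.19 to 30.39 in AIWG-R mice.

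Among the Machado-Joseph proteases, *Atxn3*, the gene that carries the repeat expansion of Machado-Joseph disease in humans, averaged 215.3 ± 44.0 in AIWG-P, against 224.1 ± 18.5 in AIWG-R. *Josd1* averaged 156.3 ± 15.9 in AIWG-P, against 145.5 ± 15.6 in AIWG-R, and *Josd2* 97.0 ± 20.6 in AIWG-P, against 87.9 ± 12.1 in AIWG-R. The 95% intervals of all 3 log2 fold changes include 0. The remaining 21 members outside the rule for named genes had log2 fold changes of -0.33 to 0.03, of which 17 were negative, at mean values of 32.6 to 720.6. Over all members 68.5% were negative, and over all genes 51.6%.

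Levels were compared between genes as the normalized value per kilobase of annotated transcript. *Otud5* was highest on this scale, with 315.1 per kilobase in AIWG-P, against 278.0 in AIWG-R, followed by *Usp25* with 255.0 in AIWG-P, against 210.8 in AIWG-R. *Usp7* (176.8 in AIWG-P, against 195.6 in AIWG-R) and *Usp4* (176.8 in AIWG-P, against 170.9 in AIWG-R) followed among the AIWG-R means. *Usp15*, first by total value, has an annotated transcript of 11525 bases and had 199.2 per kilobase in AIWG-P, above *Usp7* and *Usp4*, against 141.1 in AIWG-R, below both. *Usp35* was the lowest, with 4.30 in AIWG-P, against 5.46 in AIWG-R per kilobase. Its normalized values were 12.57 to 21.82 in AIWG-P mice and 21.32 to 25.75 in AIWG-R mice, which overlap through P3 alone (exact permutation p = 0.0159, limma unadjusted p = 0.0903).

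The second comparison asked which members varied with the red cell genes between mice of the same cohort. Red cell genes averaged 7.72 to 8.35 in AIWG-P mice and 6.63 to 7.93 in AIWG-R mice on the log2 scale. In a limma fit with cohort and this mean, 2 of 54 members had a positive slope at an adjusted p under 0.05 (3.70%, against 1.78% of all genes), and none a negative one (0% of all genes). *Usp15* had a slope of 0.85 log2 units per log2 unit of the list (SE 0.10, adjusted p = 0.00096) and *Otud5* one of 0.47 (SE 0.10, adjusted p = 0.0318). In the same fit the cohort difference of *Usp15* was 0.01 (unadjusted p = 0.957), *Usp49* was at -0.35, *Usp54* at -0.37, and no member passed both thresholds, where 1.28% of all genes were higher and 2.35% lower. The cohorts differ in the red cell list themselves, so cohort and list cannot be fully told apart in 10 mice.

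The calls on these slopes depended on R9, which had the lowest red cell mean and the lowest *Usp15* and *Otud5*. Without R9 the slopes were no smaller, but neither passed: that of *Usp15* was 1.03 (limma, adjusted p = 0.0918) and that of *Otud5* 0.52 (adjusted p = 0.61), while the number of all genes with a positive slope called dropped to 1, against 186 with R9. *Usp15* kept a slope past the threshold with any other single mouse left out. The call of *Otud5* was lost as well without P1, P7, R1, R2, R4 or R8.

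**Figure D3:**
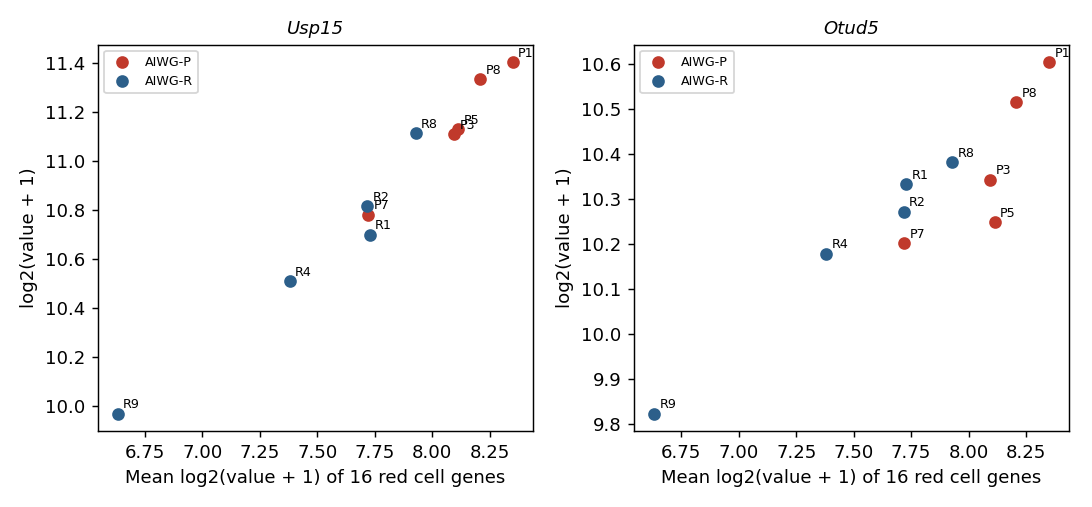
Log2(value + 1) of *Usp15* (left) and *Otud5* (right) against the mean log2(value + 1) of 16 red cell membrane genes, 1 point per mouse, AIWG-P and AIWG-R in separate colours. R9 is at the lower left of both panels (list mean 6.63), and P7 (7.72) lies among the AIWG-R mice on both axes for *Usp15*.

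The third comparison asked the same of the B cell and T cell lists. Their mean was 9.98 to 10.25 in AIWG-P mice and 10.03 to 10.10 in AIWG-R mice on the log2 scale, with the highest value in P8. In limma, 15 of 54 members fell with it at an adjusted p under 0.05 (27.8%, against 12.8% of all genes) and none rose (7.62% of all genes). They included *Usp34*, *Usp9x*, *Usp24*, *Usp7*, *Usp8* and *Usp48*, 14 of the 15 had their lowest value in P8, and without P8 neither any member nor any of the other genes passed.

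P8 was the lowest mouse for 27 of 54 members, against 28.5% of all genes, and R9 was the highest for 18 of 54 (33.3%), against 13.5% of all genes. The median deviation of the members from their median over the other 9 mice was -0.29 in P8 and 0.16 in R9 on the log2 scale, where that of all genes was 0. Over the 27 members with shorter transcripts it was -0.201 in P8 and 0.082 in R9, against 0.115 and -0.044 for all genes of such length. Over the 27 with longer transcripts it was -0.491 and 0.195, against -0.406 and 0.126. Among the longer members, *Usp34* acts on axin in Wnt signalling and was called lower without P5 (log2 fold change -0.42). It had 370.8 in P8, 627.6 to 867.4 in the other AIWG-P mice and 674.9 to 948.8 in AIWG-R mice. *Usp9x*, an X-linked protease of many substrates, had 389.6 in P8, 634.6 to 844.7 in the other AIWG-P mice and 637.8 to 945.0 in AIWG-R mice. *Usp24* had 560.9 in P8, 724.0 to 959.6 in the other AIWG-P mice and 805.5 to 1047 in AIWG-R mice. *Usp15* went the other way in both mice, with the second highest value in P8 and the lowest in R9.

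**Figure D4:**
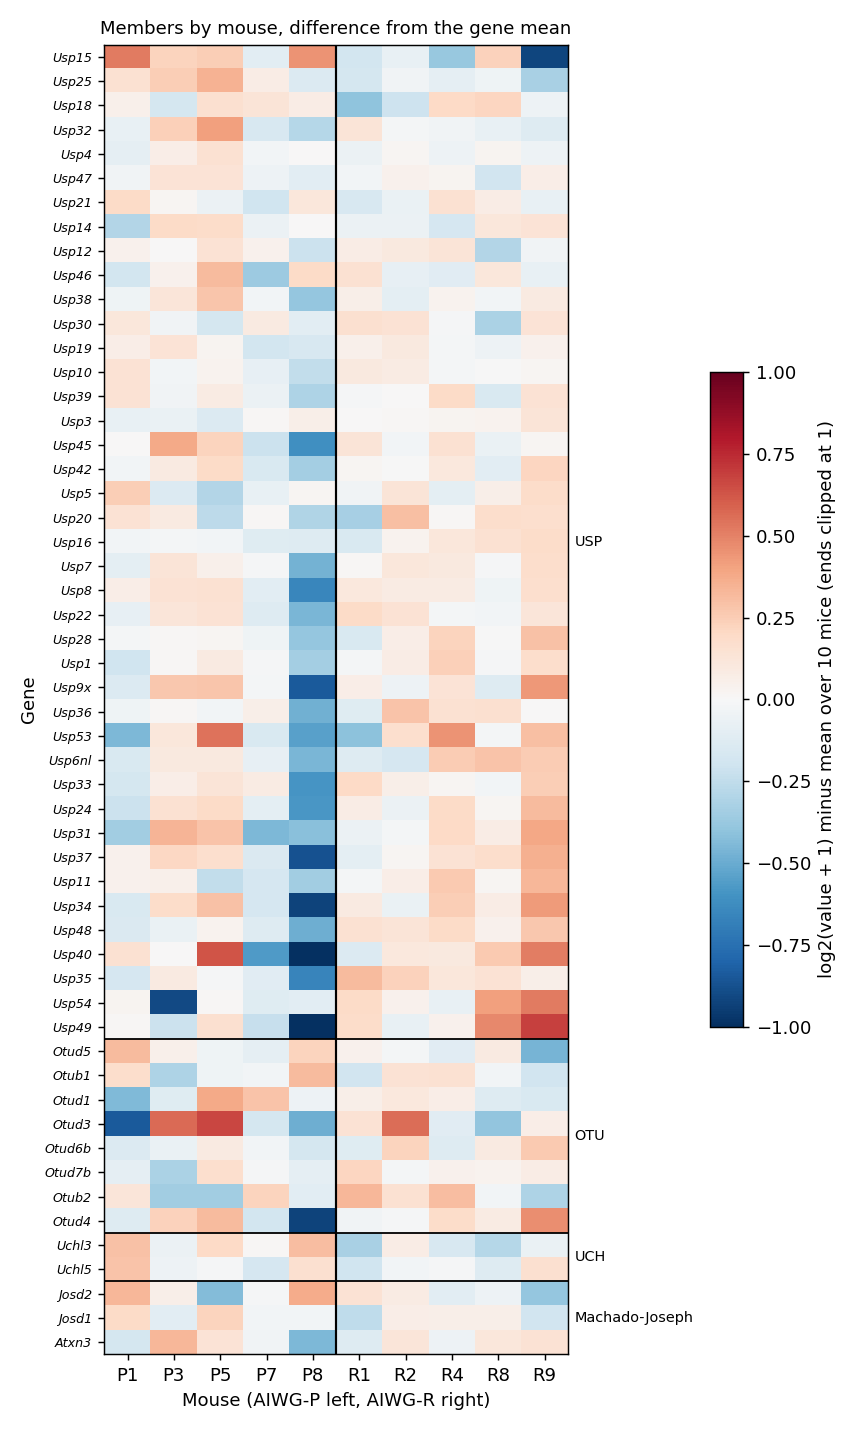
Log2(value + 1) of the 54 members minus the gene's mean over 10 mice, with AIWG-P mice left of AIWG-R mice and families from top to bottom. The column of P8 is the lowest for 27 members and that of R9 the highest for 18, while *Usp15*, in the top row, is high in P8 and lowest in R9.

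Members had longer annotated transcripts than genes in general, with a median of 4716.5 bases (1557 to 12200), against 3423 bases over the 10373 genes with a length. Across the 54 members the deviation of P8 fell with length (Spearman rho -0.485) and that of R9 increased with it (0.424), as it did across all genes (-0.590 in P8 and 0.379 in R9). Genes of one mouse share its library, so these are descriptions. For the 27 longer members the median log2 fold change was -0.16 and 77.8% were negative, against -0.14 and 79.3% for all genes of such length. For the 27 shorter members it was -0.07 with 59.3% negative, against 0.04 and 41.7% for all genes of such length. The part of length, or of RNA quality, in the differences of the members was not tested.

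**Figure D5:**
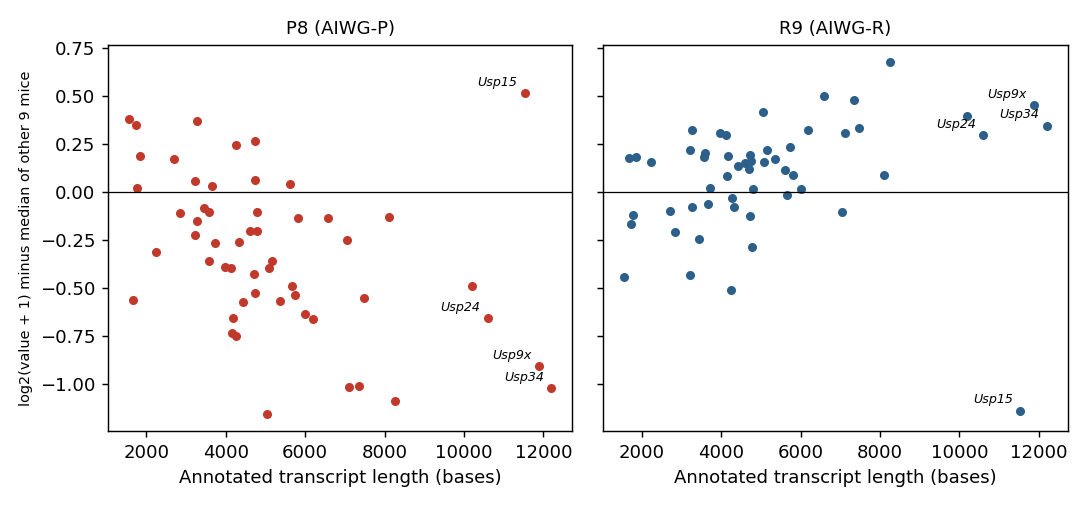
Deviation of each member in P8 (left) and R9 (right) from its median over the other 9 mice, in log2 units, against the annotated transcript length in bases. Points slope down in P8 (rho -0.485) and up in R9 (rho 0.424), and *Usp15*, 11525 bases long, lies apart from the other long members in both.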

How the data were processed

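RNA from whole blood of 5 AIWG-P and 5 AIWG-R mice was sequenced by the authors on an Illumina instrument after TruSeq library preparation, mapped with Bowtie2 and counted per gene with RSEM. The submitters' processing notes name mm9 and limma without versions. The deposited signal is 1 normalized read count per gene and mouse. Sources used here do not give the normalization by the authors or the genes they left out. The table also holds cohort means, fold changes and p-values of the authors' comparison, which were not used. All 10 columns with values of single mice entered the fit.

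Genes above 1 in at least 5 of 10 mice (10429 of 10431) were fitted on log2(value + 1) with limma 3.58.1 (R 4.3.3, mean-variance trend), checked on simulated data. A gene was counted as higher or lower where its p, before adjustment, was under 0.05 and its value was more than 25% higher or more than 20% lower, and adjusted p-values are Benjamini-Hochberg over all genes. Slopes on the mean of the red cell list, or of the B and T cell lists, came from the same fit with cohort kept. Single values were compared with an exact two-sided permutation test of cohort means of log2(value + 1). Mice are separate animals, and groups came from the sample labels. Lengths are those of the transcript with the longest coding sequence in GENCODE M21, and promoter windows are from RefSeq (GRCm38.p6), a build other than that of the processing notes. The members, gene lists and alternatives were chosen with earlier results of these data known. Genes were named by rule: members past both thresholds, the 12 members with the smallest p, the highest and lowest of each family, a list of members of known function, and in other lists those past both thresholds and up to 3 with the smallest p. *Sart3*, *Atxn7l3* and *Eny2* are named outside this rule, and so are *Usp42* and *Usp21*, to complete their groups. Alternatives covered scaling, filter, pseudocount, trend, covariates, fold threshold and single mice left out. Leaving out P8 and R9 together, and all alternatives for genes outside the members, were added after seeing the data.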

Additional observations from a re-analysis of the deposited data

Results flagged for a closer look

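Among the 33 named members, 1 mouse of a cohort stood far from the other 4 in 3 of 66 checks, and chance flags about 1 group in 20 by this measure (the gap to the nearest mouse over the range of the cohort, set against Dixon's 95% critical value for 5 samples). *Usp54* was at 18.55 in P3, where the other AIWG-P mice lay between 32.66 and 36.26 (0.797). *Usp36* was at 171.2 in P8, where the other AIWG-P mice lay between 232.1 and 248.5 (0.788). *Usp3* was at 403.2 in R9, where the other AIWG-R mice lay between 369.1 and 378.5 (0.724).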

How the results depend on the processing

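*Usp15* was the member counted as higher under every alternative except 2. With the red cell covariate 0 members were higher (1.28% of all genes), and when both P8 and R9 were left out 0 were (1.71%). The number higher was 2 with the mouse number as a replicate block (7.38% of all genes) and 3 with no fold threshold (6.73%). It was 1 to 2 with single mice left out (2.54 to 5.4%). The number lower, 2 in the comparison reported, was 7 when globins were left out of the library size, 0 with a mean value above 50 required (49 members tested), 1 with the number in the sample titles as a covariate (3 for P7, P8 and R1, 4 for the other mice, of unstated meaning; *Usp49* was lost), 0 with the red cell covariate, 8 with the replicate block, 4 with no fold threshold, 0 when both P8 and R9 were left out, and 0 to 5 with single mice left out. The 0 came without R9 and the 5 without P5. The calls of all genes moved as well. Of 10429 genes, 1006 were lower with the replicate block and 638 with no fold threshold, against 337 in the comparison reported. With the red cell covariate 245 genes were lower, and without both P8 and R9 188 were. Of the 8369 genes with a mean above 50, 238 were lower. Without R9 242 genes were lower, and without P5 602 were. With globins left out, the median of the members was -0.24 and that of all genes -0.15, so the members lay -0.09 relative to all genes, and 162 genes were higher and 1212 lower, against 423 and 337 in the comparison reported. With single mice left out the median of the members was -0.13 to -0.04. Members rising with the red cell list numbered 1 with globins left out (0.47% of all genes), 1 without the trend (1.37%) and 1 without both P8 and R9 (0.594%). With single mice left out they numbered 0 to 2 (0.00959 to 2.31%). Members falling with the lymphocyte lists numbered 0 with globins left out (0% of all genes) and 0 without both P8 and R9 (0.642%). With single mice left out those falling numbered 0 to 19 and those rising 0 to 1. The number falling was 0 without P8 (0% of all genes), 8 without P3 (7.8%) and 19 without R1 (13.7%). Of 722 comparisons of named members between settings none that was called changed sign, 17 lost a call and 22 gained one. The cause of these changes was not tested.

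Only mouse numbers 1 and 8 occur in both cohorts. With the replicate block the cohort difference therefore rests on P1, R1, P8 and R8 alone, and its counts do not describe all mice. The deviations of these 2 pairs correlated with r = 0.116 and 0.327 over 10429 genes. The labels do not say that a number marks a shared litter or day, so the numbers were not taken as pairs in the comparison reported. A planned test on counts was not run, since it could not be established that a step of the deposited values is 1 read. The least precise member was *Otud3*, with an SE of 0.30 on the log2 scale.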

Other observations

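Genes outside the rule that encode other deubiquitinating enzymes or proteins with related domains, among them JAMM-domain proteins and CYLD, were read from the same fit. The list was not limited to proteins shown to remove ubiquitin. Of 23 such genes measured from a list of 32, none rose, against 4.06% of all genes, and 1 fell, against 3.23%. The gene that fell was *Pan2*, which encodes a subunit of a deadenylase with a domain of the USP fold. It averaged 251.4 ± 48.2 in AIWG-P, against 319.3 ± 26.8 in AIWG-R (SD, n = 5 each), a log2 fold change of -0.36. Without P8 it was -0.24 and was not called. *Psmd14*, the JAMM protease of the proteasome lid, averaged 206.5 ± 3.38 in AIWG-P, against 178.9 ± 17.2 in AIWG-R (0.21), and *Cops6*, of the COP9 signalosome, 197.2 ± 29.6 in AIWG-P, against 163.9 ± 13.6 in AIWG-R (0.25). Neither reached the fold threshold.

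Of 11 genes that encode ubiquitin or activating enzymes, *Ubb*, a polyubiquitin gene, rose, with 68510 ± 18890 in AIWG-P, against 47740 ± 14080 in AIWG-R (log2 fold change 0.54), and *Uba6*, an activating enzyme, fell, with 90.9 ± 30.9 in AIWG-P, against 122.8 ± 13.5 in AIWG-R (-0.51). The slope of *Ubb* on the red cell list was 0.95 (limma, adjusted p = 0.0185), where without R9 only 1 of all genes had a positive slope called. With that list as covariate *Ubb* was at -0.05 (limma, unadjusted p = 0.763) and *Uba6* at -0.31 (unadjusted p = 0.320), and neither was called. Cohort and list cannot be fully told apart here either. *Ubb* also lost its call without P1, P3, P8, R2, R4 or R9 (0.22 without both P8 and R9), and *Uba6* without P1, P8, R1, R2, R4 or R9 (-0.27 without P8). Of 24 genes measured from a list of 27 binding partners of deubiquitinating enzymes, *Atxn7* fell and none rose, where 3.23% of all genes fell and 4.06% rose. *Nfrkb* and *Ino80*, of the chromatin remodeller that binds UCHL5, averaged 290.5 ± 36.2 and 288.6 ± 20.9 in AIWG-P, against 334.0 ± 34.2 and 324.0 ± 31.6 in AIWG-R, and did not pass.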
